A study of Mus musculus with 13 samples.

Results

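The genes of 9 hormone receptors of the nuclear receptor family were followed in the mouse submandibular gland, from the branching embryonic gland to the adult. They were chosen by name, and all 9 are among the 23364 genes of the deposited tables. They comprise the steroid receptors Esr1, Pgr, Nr3c1 and Nr3c2, the thyroid hormone receptors Thra and Thrb, and the retinoic acid receptors Rara, Rarb and Rarg. Whole glands of C57BL/6 mice without further treatment or transgene were sequenced in 13 samples of 6 ages. There were 3 samples from E14.5, pools of 3 animals each, 2 pools of 2 animals from each of the later embryonic ages (E16.5, E18.5), and 2 samples from every postnatal age (P5, 4wk, 12wk). The 4wk and 12wk animals were males, and the sex of the embryos and of the P5 pups was not ascertained, so that any effect of sex cannot be told apart from age. For comparisons of stages, the 7 samples from before birth were the embryo and the 4 samples of 4wk and 12wk the adult.

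Nuclear receptors are transcription factors that bind a small hormone and, with it, short repeated DNA elements. Unliganded steroid receptors are held by Hsp90 chaperones, whereas thyroid hormone and retinoic acid receptors sit on DNA with a retinoid X receptor as partner and repress until hormone arrives. Retinoic acid made by the mesenchyme takes part in early salivary gland formation, and thyroid hormone and glucocorticoids are known to promote the postnatal differentiation of the rodent submandibular gland, above all of its granular ducts.

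On the mm9 genome, Thra (chromosome 11, 98601952 to 98630320, plus strand) and Rara (chromosome 11, 98789132 to 98836256, plus strand) were 158.811 kilobases apart. Rarb (chromosome 14, 17263356 to 17651381, minus strand) and Thrb (chromosome 14, 18493474 to 18870602, plus strand) were 842.092 kilobases apart. The receptor genes thus lie in 2 pairs, each with 1 thyroid hormone and 1 retinoic acid receptor. Rarg is on chromosome 15 (102065369 to 102087948, minus strand), Nr3c2 on chromosome 8 (79423341 to 79768911, plus strand), Esr1 on chromosome 10 (5340927 to 5734948, minus strand) and Pgr on chromosome 9 (8900419 to 8965425, plus strand). Exons of Thra share 263 bases with exons of Nr1d1 on the opposite strand, and those of Nr3c2 share 247 bases with the long non-coding RNA gene Gm10649, also on the opposite strand. These overlaps are those of the GENCODE annotation. The authors' counting left out reads that fell on more than 1 gene, but whether their gene models share these bases was not checked.

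In the adult, Rarb was lower and Thrb and Nr3c2 were higher on average than in the embryo, with overlapping samples for Nr3c2 as deposited. Because these levels moved in opposite directions, the promoters of the 3 genes are shown. Each is the 250 bases before a RefSeq transcription start on GRCm38.p6, read along the gene's own strand, for Rarb chr14:16575477-16575726 (minus strand), for the first of the 2 starts of Thrb chr14:17660710-17660959 (plus strand) and for Nr3c2 chr8:76902080-76902329 (plus strand). Capitals mark a direct repeat of 2 hexamers spaced by 5 bases, the kind of element that retinoic acid receptors bind.
Rarb: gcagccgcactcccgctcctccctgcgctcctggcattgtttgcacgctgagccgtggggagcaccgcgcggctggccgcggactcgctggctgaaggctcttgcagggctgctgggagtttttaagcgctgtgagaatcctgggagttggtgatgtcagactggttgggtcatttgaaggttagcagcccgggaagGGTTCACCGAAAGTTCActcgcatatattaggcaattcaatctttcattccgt
Thrb: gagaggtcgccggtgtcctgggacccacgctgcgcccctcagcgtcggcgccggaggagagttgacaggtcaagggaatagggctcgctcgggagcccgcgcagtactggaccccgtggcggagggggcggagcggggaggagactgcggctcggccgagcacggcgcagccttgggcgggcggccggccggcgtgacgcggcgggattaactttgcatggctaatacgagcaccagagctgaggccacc
Nr3c2: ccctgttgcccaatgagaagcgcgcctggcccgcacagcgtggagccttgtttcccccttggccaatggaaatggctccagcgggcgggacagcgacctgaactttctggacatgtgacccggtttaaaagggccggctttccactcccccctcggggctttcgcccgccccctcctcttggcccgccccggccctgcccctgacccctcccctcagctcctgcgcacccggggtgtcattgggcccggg
The hexamers searched on both strands were the consensus AGGTCA and its known variants, which read AGTTCA for one, GGTTCA for another and GGGTCA for the last, in any pair, with 5, 2 or 4 bases between them. The Rarb match covers bases 53 to 37 before the start. A repeat with 5 bases of spacing was held by 29 of the 32851 promoter windows of the same 250 bases before a start (0.0883%), 1 with 2 bases by 57 (0.174%) and 1 with 4 bases, the spacing best known for thyroid hormone receptors, by 22 (0.067%). Of the 13 windows of the 7 receptor genes that have an entry, only the Rarb window held a match. Those of Rara and Rarg, which were also lower in the adult, held none. Thra and Nr3c1 were not analysed here. The only other match among the retinoid and thyroid hormone genes examined was in front of Cyp26a1, the retinoic acid-degrading enzyme, at chr19:37697776-37697792 on the minus strand:
Cyp26a1: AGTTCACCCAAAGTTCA
These letters say what the windows hold, and not that a receptor was bound there.

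The files give 1 FPKM value (fragments per kilobase of transcript, scaled to the reads of the library) per gene and sample. The libraries held between 5817293 reads on genes (4wk replicate 1) and 48314162 (P5 replicate 1), as computed from the steps of the FPKM values. The 10 genes with the highest FPKM took 5.93% to 16.501% of all FPKM before birth, 29.2% and 31.1% at P5, and 48.1% to 61.1% in the adult. The median log2 fold change of all 14650 tested genes from embryo to adult was -0.75. After rescaling each sample by its median-of-ratios factor, which centres it by construction, the median was -0.076, and both scalings are given for the receptors and for the counts and medians of the gene lists. A gene was tested where it had at least 1 FPKM in at least 1 sample, and called where the log2 fold change of FPKM + 1 was at least 1 in size with a Benjamini-Hochberg adjusted p below 0.1 in limma. Adding 1 to the FPKM understates the fold change of genes with low levels, such as Thrb and Nr3c2. Of the 9 receptors 7 were tested, and Esr1 and Pgr stayed under 1 FPKM in every sample.

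**Figure D1:**
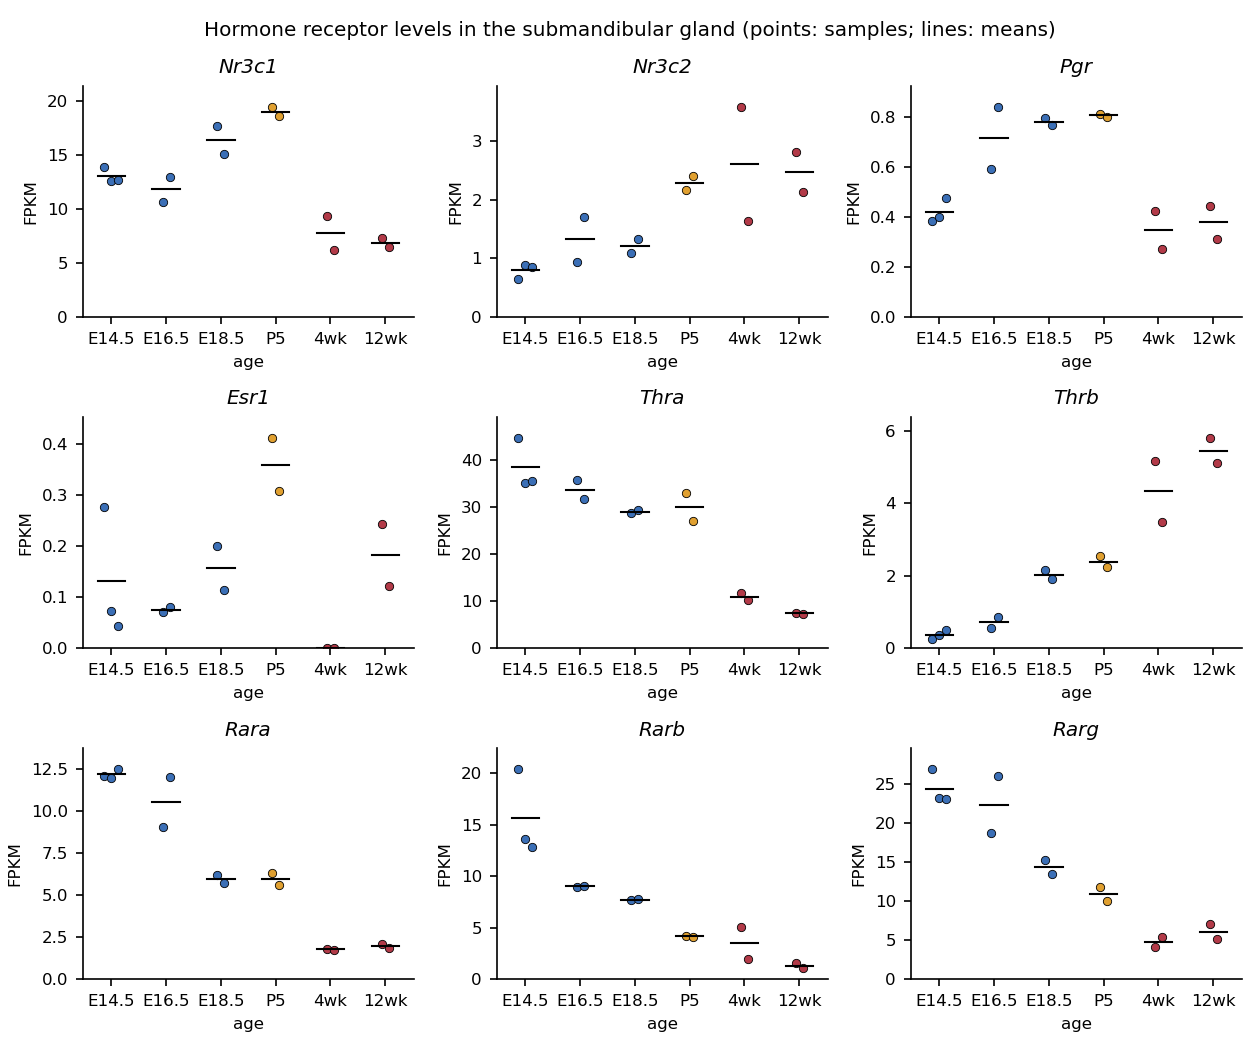
FPKM of each receptor gene (vertical axes, linear and separate for each gene) at the 6 ages, with 1 point per sample and the mean as a line (embryo blue, P5 yellow, adult red). As deposited, Thra went from a mean of 38.6 FPKM at E14.5 to 7.42 at 12wk and Thrb from 0.368 to 5.46, and all adult samples of the 3 Rar genes were below all embryonic ones.

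Of the 7 receptors tested between embryo and adult, 1 rose (Thrb) and 4 fell (Thra, Rara, Rarb, Rarg), and neither Nr3c1 nor Nr3c2 reached the fold threshold. Of all tested genes 43.6% were called in this comparison, 5.58% higher and 38% lower in the adult. After rescaling, 2 receptors were called higher (Thrb, Nr3c2) and 2 lower (Rara, Rarb), where 28.4% of all genes were called, 13.8% higher and 14.7% lower. As deposited, the samples of the embryo and of the adult did not overlap for 6 of the 7 receptors, Nr3c2 being the exception, as was so for 60.3% of all tested genes. On the rescaled values they did not overlap for 5 of the 7, Nr3c1 and Rarb being the exceptions, beside 44.1% of all genes. Between embryo and P5 the 1 receptor called was Rarb, which fell, with 12.3% of all genes called and 8.14% called lower. Between P5 and adult 3 receptors fell (Nr3c1, Thra and Rara), with 23.1% of all genes called and 20.8% called lower. After rescaling, 0 receptors were called between embryo and P5 and 1, Thrb, between P5 and adult, where it rose, with 9.45% and 14.6% of all genes called in these comparisons, and 6.05% called higher in the second.

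**Figure D2:**
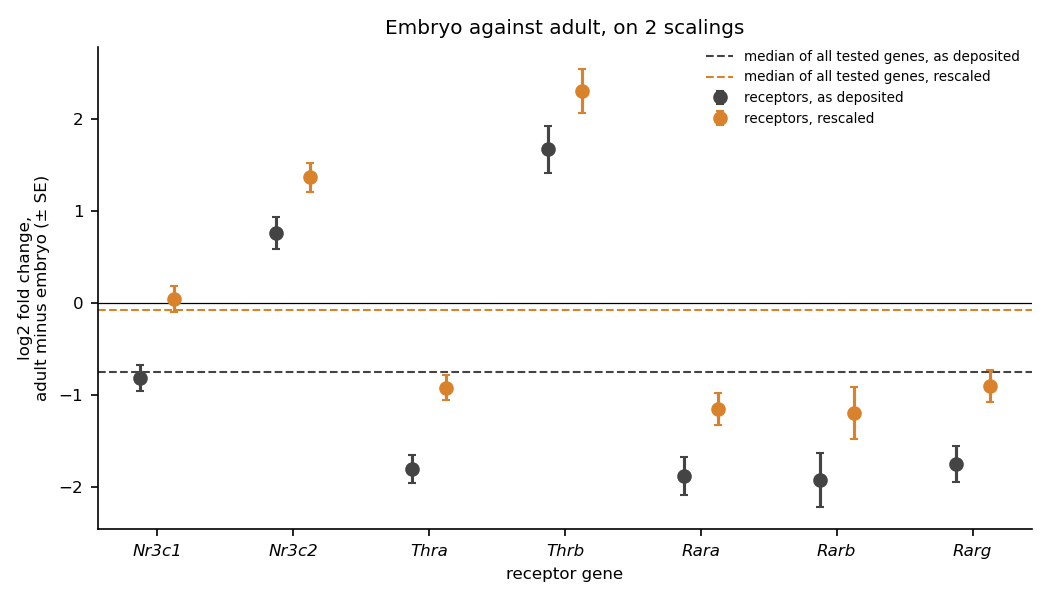
Log2 fold change of FPKM + 1 from embryo to adult (vertical axis, adult minus embryo) for the 7 tested receptors, as points with the SE of the limma fit, as deposited (grey) and after median-of-ratios rescaling (orange); dashed lines are the median of all tested genes, -0.75 and -0.076. Thrb and Nr3c2 were above the median and Thra, Rara, Rarb and Rarg below it on both scalings, whereas Nr3c1 was at -0.82 as deposited and at 0.042 after rescaling.

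The thyroid hormone receptors moved in opposite directions. Thra, whose locus also gives a splice form that does not bind hormone and is not separated in values per gene, measured 44.8, 35.2 and 35.7 FPKM at E14.5. Its E16.5 values were 35.7 and 31.8 FPKM, followed by 28.7 and 29.4 in the E18.5 pools. The P5 pups gave 32.9 and 27.0 FPKM, the 4wk mice 11.6 and 10.3, and the 12wk mice 7.49 and 7.36. All 4 adult samples were below all others, while E18.5 and P5 overlapped. Thra fell from 34.5 ± 5.41 FPKM in the embryo (SD, n = 7) to 9.19 ± 2.12 in the adult (SD, n = 4), a log2 fold change of -1.81 (SE 0.15, adjusted p = 1.77e-07 in limma). After rescaling it was -0.92 (SE 0.14, adjusted p = 6.77e-05 in limma), just short of the fold threshold. Between embryo and P5 the difference in Thra was -0.19 as deposited and 0.069 after rescaling, with limma adjusted p of 0.473 and 0.812.

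Thrb, the receptor subtype whose level in many tissues rises with the thyroid hormone surge around birth, started at 0.245, 0.361 and 0.497 FPKM in the E14.5 pools. The E16.5 pools gave 0.560 and 0.871 FPKM and the E18.5 pools 2.16 and 1.89. After birth the level was 2.54 and 2.23 FPKM in P5 glands, 5.17 and 3.49 in 4wk glands and 5.80 and 5.11 in 12wk glands. The samples of successive ages did not overlap up to 4wk, and those of 4wk and 12wk did. Thrb rose from 0.942 ± 0.772 FPKM in the embryo (SD, n = 7) to 4.89 ± 0.987 in the adult (SD, n = 4), by 1.67 on the log2 scale (SE 0.25, adjusted p = 4.00e-05 in limma), and by 2.31 after rescaling (SE 0.24, adjusted p = 2.73e-06 in limma). Between E16.5 and E18.5 the log2 difference was 0.83 (SE 0.19, adjusted p = 0.0229 in limma), short of the fold threshold, and with a pseudocount of 0.1 in place of 1 it was 1.41 (adjusted p = 0.0320 in limma), past it. Between P5 and 4wk it was 0.64 as deposited (adjusted p = 0.0143 in limma) and 1.19 after rescaling (adjusted p = 1.83e-04 in limma), past the fold threshold on the second scaling. The Thrb values rest on 31 to 952 reads per sample.

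The share of each thyroid hormone receptor in their sum within a sample does not depend on how samples are scaled against each other. Thrb made up 0.545% to 6.999% of the summed Thra and Thrb FPKM before birth, 7.15% and 7.63% at P5, and 25.3% to 43.7% in the adult. The log2 ratio of Thra to Thrb, with 0.1 FPKM added to both genes here and in the ratios that follow, was 5.36 ± 1.24 in the embryo (SD, n = 7) and 0.89 ± 0.55 in the adult (SD, n = 4). The difference of -4.47 had p = 0.00303 in a two-sided exact permutation test, the smallest that the 330 labellings allow, and an adjusted p of 0.00505 over the 5 ratios tested. In every sample Thra was the more abundant of this pair per length of transcript. Among 12wk samples the Thrb share was 43.7% and 41.0%, and among 4wk samples 30.8% and 25.3%.

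**Figure D3:**
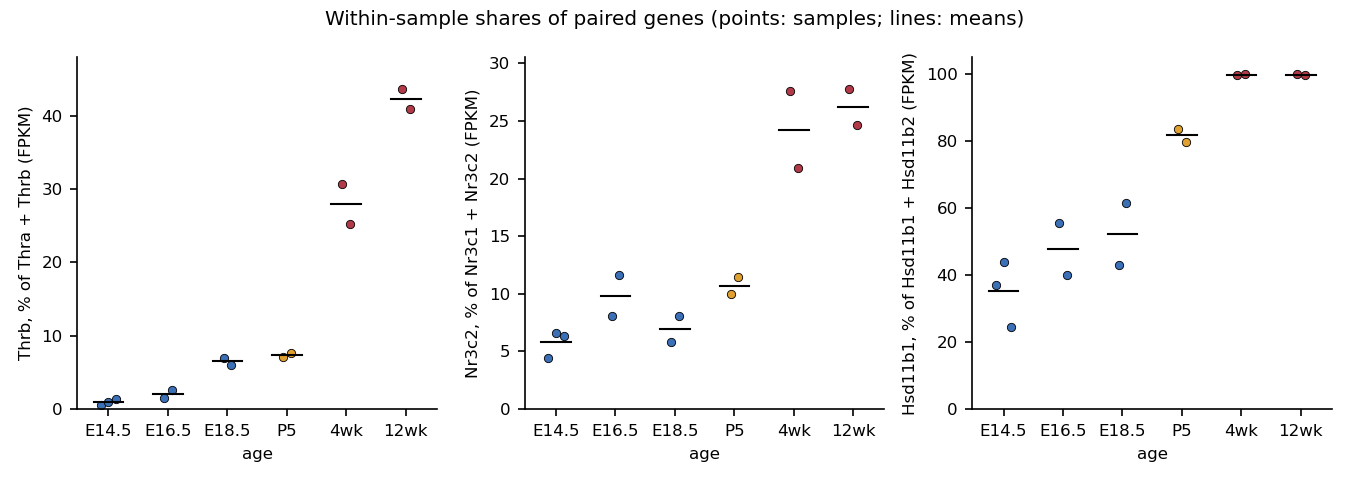
Share of Thrb in Thra + Thrb, of Nr3c2 in Nr3c1 + Nr3c2 and of Hsd11b1 in Hsd11b1 + Hsd11b2 (vertical axes, percent of summed FPKM) at the 6 ages, with points for samples and lines for means. Every adult sample was above every embryonic and P5 sample in all 3 panels, with Thrb at 25.3% to 43.7%, Nr3c2 at 20.9% to 27.8% and Hsd11b1 at 99.5% or more in the adult.

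The genes that supply thyroid hormone to its receptors also differed between embryo and adult. Of the 8 tested transport and conversion genes 2 were called higher and 3 lower in the adult, as deposited, and 2 higher and 2 lower after rescaling. Dio3, the deiodinase that inactivates thyroid hormone, went from 11.2, 8.55 and 10.1 FPKM in the E14.5 pools through 3.50 and 3.21 (E16.5) and 1.27 and 0.710 (E18.5) to 0.044 and 0.025 in P5 glands, and was listed at 0 in all 4 adult samples, so no fold is given for it. Crym, a cytosolic thyroid hormone-binding protein, fell from 7.09 ± 4.85 FPKM (SD, n = 7) to 0.0987 ± 0.0673 (SD, n = 4), a log2 fold change of -2.72 (adjusted p = 3.42e-06 in limma). The amino acid and hormone carrier Slc7a8 rose by 1.00 as deposited and by 1.81 after rescaling. Of 7 tested thyroid hormone target genes 4 were called higher and 1 lower, and after rescaling 5 higher and 0 lower. Without both 4wk samples, 3 were called higher and 1 lower. The gene that lost its call was Dio1, the deiodinase that activates thyroid hormone, also counted among the conversion genes, which had 7.85 and 5.66 FPKM at 4wk, 0.110 and 0.190 at 12wk and 0 to 0.658 before birth. Thrsp, a gene of fat synthesis that was called higher, had 179 and 3.75 FPKM at 4wk, 15.6 and 22.4 at 12wk and 0.350 to 17.2 before birth, so the groups overlapped. The highest Thrsp value was that of 4wk replicate 1. This sample also had the highest adult sum of fat cell markers, 83.2 FPKM, and of the markers of several other cell types. The part of fat cells and of other cell types in the Thrsp value was not tested. Dio1 and Thrsp were named after their values were seen. Klf9, a target of both thyroid hormone and glucocorticoid receptors, rose from 3.62 ± 1.40 FPKM in the embryo (SD, n = 7) to 22.4 ± 1.60 in the adult (SD, n = 4), with 9.93 and 9.52 FPKM at P5. Its log2 fold change was 2.40 (adjusted p = 3.13e-07 in limma), and that of Ucp2, a mitochondrial uncoupling protein, was 1.05 (adjusted p = 5.55e-04 in limma).

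Among the steroid receptors, Nr3c1, the glucocorticoid receptor on chromosome 18, was the most abundant in every sample. It measured 13.9, 12.6 and 12.7 FPKM at E14.5. Its E16.5 values were 10.7 and 12.98 FPKM, followed by 17.7 and 15.2 in the E18.5 pools. The P5 pups gave 19.5 and 18.6 FPKM, the 4wk mice 9.37 and 6.17, and the 12wk mice 7.32 and 6.49. Both P5 samples were above all others and all 4 adult samples below all others, as deposited. Nr3c1 fell from P5 to the adult, by 1.28 on the log2 scale (SE 0.19, adjusted p = 3.14e-04 in limma), and by 0.66 after rescaling (SE 0.19, adjusted p = 0.0235 in limma), where it was not called. From embryo to adult the log2 difference was -0.82 (SE 0.14, adjusted p = 1.25e-04 in limma), close to the median of all tested genes, and turned to 0.042 after rescaling (SE 0.14, adjusted p = 0.810 in limma). On the rescaled values Nr3c1 averaged 10.8 FPKM before birth, 18.0 at P5 and 11.0 in the adult, so the P5 level was the highest on both scalings. From embryo to P5 the log2 difference was 0.46 as deposited and 0.70 after rescaling, with limma adjusted p of 0.0702 and 0.0197, both short of the fold threshold.

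Nr3c2, the mineralocorticoid receptor, which also binds glucocorticoids, started at 0.647, 0.888 and 0.860 FPKM in the E14.5 pools. The E16.5 pools gave 0.938 and 1.71 FPKM and the E18.5 pools 1.09 and 1.33. After birth the level was 2.16 and 2.40 FPKM in P5 glands, 3.58 and 1.63 in 4wk glands and 2.81 and 2.13 in 12wk glands. P5 was above every embryonic sample, and P5, 4wk and 12wk overlapped. From embryo (1.07 ± 0.355 FPKM, SD, n = 7) to adult (2.54 ± 0.846, SD, n = 4) the log2 difference was 0.76 (SE 0.17, adjusted p = 0.00119 in limma), short of the fold threshold. After rescaling Nr3c2 rose by 1.37 (SE 0.16, adjusted p = 7.79e-06 in limma). Between embryo and P5 the difference was 0.68 as deposited and 0.79 after rescaling, with limma adjusted p of 0.0359 and 0.0208. The 51 to 426 reads per sample behind these values were lowest in E14.5 replicate 1 and 4wk replicate 2.

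Nr3c2 made up 4.44% to 11.6% of the summed Nr3c1 and Nr3c2 FPKM before birth, 9.98% and 11.4% at P5, and 20.9% to 27.8% in the adult. The log2 ratio of Nr3c1 to Nr3c2 was 3.60 ± 0.44 in the embryo (SD, n = 7) and 1.53 ± 0.24 in the adult (SD, n = 4), and the difference of -2.07 had p = 0.00303 in the two-sided exact permutation test (adjusted p = 0.00505). Both P5 samples lay between the 2 samples of E16.5 in this share, although each receptor was higher at P5 than at E16.5, and all adult samples were above all others.

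Access of glucocorticoid to these receptors is set by a pair of enzymes with opposite action. Hsd11b1, which regenerates the active steroid, had 0.362 to 2.22 FPKM in the embryo, 2.29 and 1.81 in P5 glands, then 77.9 and 55.1 (4wk) and 33.3 and 32.7 (12wk). It rose by 4.59 on the log2 scale from embryo to adult (SE 0.27, adjusted p = 1.10e-08 in limma). Hsd11b2, which inactivates the steroid and shields Nr3c2 from it in the kidney and colon, had 0.729 to 1.38 FPKM before birth, 0.448 and 0.462 at P5, and in the adult 4, 0, 0 and 8 reads, or 0 to 0.372 FPKM. The log2 ratio of Hsd11b2 to Hsd11b1 differed by -8.31 between adult and embryo (exact permutation p = 0.00303, adjusted p = 0.00505), a size that depends on the 0.1 added to both genes. Of the 12 tested steroid-converting enzymes 2 were called higher and 5 lower in the adult, and after rescaling 2 higher and 1 lower. The other 1 that rose was Sult1e1, which inactivates oestrogens by sulfation, from 0.338 ± 0.248 FPKM in the embryo (SD, n = 7) to 39.7 and 83.2 FPKM at 4wk and 6.58 and 6.84 at 12wk. Srd5a1, Hsd17b7 and Cyp11a1 fell as deposited, by 1.22, 1.41 and 1.13, and by 0.44, 0.76 and 0.94 after rescaling, where they were not called.

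Of the 8 tested genes listed for mineralocorticoid action on sodium uptake, 6 were called higher and 0 lower in the adult, on both scalings. The list also holds Hsd11b2, which shields the receptor rather than acting after it, and which is counted among the steroid-converting enzymes too. Hsd11b2 was at -0.95 as deposited and -0.72 after rescaling, short of the fold threshold on both. Scnn1b, a subunit of the epithelial sodium channel, had 0.164 to 2.73 FPKM before birth, 8.78 and 9.06 at P5, and 25.02 to 40.9 in the adult, and rose by 3.84 on the log2 scale (SE 0.31, adjusted p = 1.41e-07 in limma). Scnn1a, another subunit, rose by 2.42 (adjusted p = 2.87e-05 in limma), and had already 10.1 and 10.7 FPKM at P5. Sgk1, a kinase induced by both corticosteroid receptors that keeps the channel at the membrane, had 5.66 to 8.49 FPKM in the embryo, 10.9 and 6.39 in P5 glands, then 34.4 and 45.5 (4wk) and 76.8 and 75.8 (12wk). It rose by 2.91 from embryo to adult (SE 0.21, adjusted p = 6.32e-08 in limma). Of 13 tested glucocorticoid targets 2 were called higher (Sgk1, Klf9) and 2 lower, and after rescaling 3 higher and 0 lower. Mt2, a metallothionein, was among those lower as deposited, at -1.76, and was not called after rescaling, at -0.83. The median log2 fold change of this list was -0.057 as deposited and 0.67 after rescaling, beside -0.75 and -0.076 for all tested genes.

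Of the 10 chaperones and cochaperones that hold steroid receptors, 7 were called lower and 0 higher as deposited, and 1 lower and 1 higher after rescaling. Ppid, an Hsp90-bound immunophilin, fell by 2.29 as deposited and by 1.39 after rescaling, and was called on both. Ptges3 fell by 1.85 and Hsp90ab1 by 1.75 as deposited, and by 0.92 and 0.80 after rescaling, where neither was called. The 1 chaperone higher after rescaling was Fkbp5, itself a glucocorticoid target and named here after its values were seen, with log2 fold changes of 0.87 as deposited and 1.78 after rescaling. It had 7.02 FPKM at P5 on average, the age at which Nr3c1 was highest, and 16.9 ± 3.14 in the embryo (SD, n = 7) and 33.5 ± 13.9 in the adult (SD, n = 4).

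Pgr and Esr1 stayed low in whole glands. Pgr, the progesterone receptor, measured 0.384, 0.401 and 0.478 FPKM at E14.5. Its E16.5 values were 0.593 and 0.840 FPKM, followed by 0.795 and 0.770 in the E18.5 pools. The P5 pups gave 0.814 and 0.799 FPKM, the 4wk mice 0.424 and 0.274, and the 12wk mice 0.446 and 0.311, from 15 to 271 reads per sample. The samples from E16.5 to P5 were above all others, and those of E14.5 overlapped with the adult. In the fit of all 23364 genes without a filter, the log2 difference of Pgr from P5 to adult was -0.41 (adjusted p = 0.0282 in limma), short of the fold threshold.

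Esr1, an oestrogen receptor, started at 0.276, 0.0731 and 0.0433 FPKM in the E14.5 pools. The E16.5 pools gave 0.0702 and 0.0807 FPKM and the E18.5 pools 0.2002 and 0.114. After birth the level was 0.412 and 0.307 FPKM in P5 glands and 0.244 and 0.122 in 12wk glands, with 0 reads in both 4wk samples, which allows up to 0.119 and 0.0873 FPKM (3 reads, the bound used for a count of 0). The 86 and 56 reads at P5 gave 95% Poisson intervals of 0.330 to 0.509 and 0.232 to 0.399 FPKM, which cover counting error only. Both P5 samples were above all others, although the interval of E14.5 replicate 1 (0.175 to 0.414 FPKM) reached into theirs. Without the filter on low values the log2 difference of Esr1 from P5 to adult was -0.32 (adjusted p = 0.0330 in limma), short of the fold threshold. Of 6 tested genes known as oestrogen or progesterone targets 1 was called higher in the adult (Wnt4, 1.64) and 4 lower, among them Igfbp4 (-3.58), Myb (-2.92) and Cited1 (-2.002), and after rescaling 2 were called higher and 4 lower.

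All 3 retinoic acid receptor genes had their highest mean at E14.5 and their lowest at 4wk or 12wk. Rarg, the subtype best known from epithelia, was the most abundant of them in every sample but 4wk replicate 1. It started at 26.9, 23.1 and 23.1 FPKM in the E14.5 pools. The E16.5 pools gave 18.7 and 26.0 FPKM and the E18.5 pools 15.2 and 13.5. After birth the level was 11.8 and 10.03 FPKM in P5 glands, 4.07 and 5.44 in 4wk glands and 6.995 and 5.11 in 12wk glands. E14.5 overlapped with E16.5 and 4wk with 12wk, and the other successive ages were apart. Rarg fell by 1.76 from embryo to adult (SE 0.19, adjusted p = 2.11e-06 in limma), and by 0.91 after rescaling (SE 0.17, adjusted p = 4.55e-04 in limma), short of the fold threshold.

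Rara, the broadly expressed subtype, measured 12.1, 12.0 and 12.5 FPKM at E14.5. Its E16.5 values were 9.05 and 12.0 FPKM, followed by 6.20 and 5.69 in the E18.5 pools. The P5 pups gave 6.32 and 5.60 FPKM, the 4wk mice 1.79 and 1.73, and the 12wk mice 2.11 and 1.83. E14.5 overlapped with E16.5 and E18.5 with P5, and all adult samples were below all others. Rara fell by 1.88 from embryo to adult (SE 0.21, adjusted p = 2.10e-06 in limma), and by 1.15 after rescaling (SE 0.17, adjusted p = 7.92e-05 in limma). From E16.5 to E18.5 the log2 difference was -0.72 (SE 0.15, adjusted p = 0.0159 in limma), short of the fold threshold.

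Rarb, known as a retinoic acid target through the element shown above, started at 20.4, 13.6 and 12.9 FPKM in the E14.5 pools. The E16.5 pools gave 8.99 and 9.03 FPKM and the E18.5 pools 7.65 and 7.80. After birth the level was 4.21 and 4.11 FPKM in P5 glands, 5.08 and 1.99 in 4wk glands and 1.54 and 1.05 in 12wk glands. No age overlapped with the next but P5 and 4wk. Rarb fell from embryo to P5 by 1.20 on the log2 scale (SE 0.38, adjusted p = 0.0323 in limma), by 0.95 after rescaling, where it was not called (adjusted p = 0.0859 in limma), and was at -1.22 and -1.19 without P5 replicate 1 and 2, where it was not called (adjusted p = 0.177 and 0.191 in limma). With 1 P5 sample left, that sample was assumed to vary like those of the other stages. From embryo to adult it fell by 1.93 (SE 0.30, adjusted p = 4.57e-05 in limma), and by 1.20 after rescaling (SE 0.29, adjusted p = 0.00267 in limma). The values of 4wk replicate 1 and 2 rest on 82 and 44 reads. The highest adult Rarb value was that of 4wk replicate 1. This sample also had the highest adult sum of fat cell markers (83.2 FPKM, against 2.74 to 13.2 in the other adult samples). The same held for skeletal muscle markers (28.3 against 1.26 to 1.91) and for nerve and glia markers (46.5 against 30.8 to 35.7). It held as well for endothelium markers (42.4 against 24.1 to 36.0) and mesenchyme markers (389 against 243 to 360). The sums of immune, acinar and red cell markers were highest in this sample too. The part of these cell types in the Rarb value was not tested. Without 4wk replicate 1, Rarb fell from P5 to adult by 1.05 (adjusted p = 0.0260 in limma), where the value with all samples was -0.73 and not called.

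Together the Rar genes summed to 48.4 to 59.4 FPKM at E14.5 and to 7.99 to 10.9 in the adult. Rarg took 45.3% to 55.3% of that sum in the embryo, 52.8% and 50.8% in P5 glands, then 37.2% and 59.3% (4wk) and 65.7% and 63.9% (12wk). Rarb took 19.2% to 34.4% in the embryo, 18.9% and 20.8% in P5 glands, then 46.4% and 21.7% (4wk) and 14.4% and 13.2% (12wk). The log2 ratio of Rarg to Rara was 1.09 ± 0.15 in the embryo (SD, n = 7) and 1.46 ± 0.24 in the adult (SD, n = 4), with a difference of 0.37 (exact permutation p = 0.0121, adjusted p = 0.0152), which no longer passed an adjusted p of 0.05 without 4wk replicate 2 or without 12wk replicate 1 (adjusted p = 0.0521 for both) or with a pseudocount of 1 (adjusted p = 0.303). That of Rarb to Rara was 0.19 ± 0.37 in the embryo (SD, n = 7) and 0.12 ± 0.97 in the adult (SD, n = 4), with a difference of -0.070 (exact permutation p = 0.855).

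**Figure D4:**
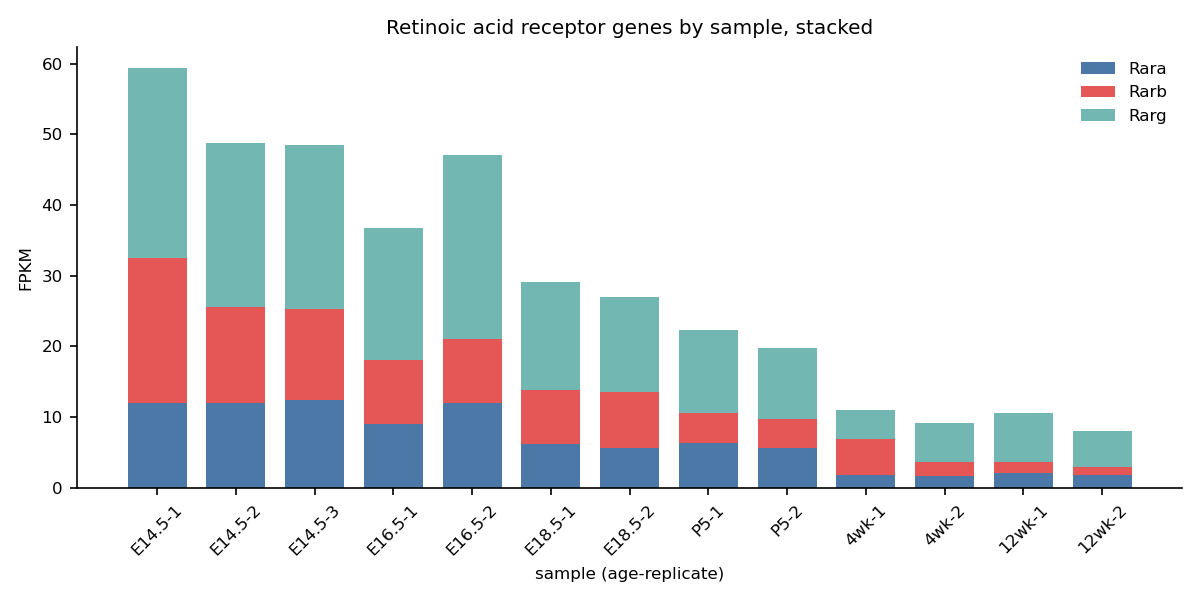
FPKM of Rara, Rarb and Rarg stacked for each of the 13 samples (horizontal axis: age and replicate; vertical axis: FPKM). The sum went from 59.4 FPKM in E14.5 replicate 1 to 7.99 in 12wk replicate 2, and Rarb took 46.4% of it in 4wk replicate 1 and 21.7% in 4wk replicate 2.

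Of 16 tested retinoid transport and metabolism genes 9 were called lower and 0 higher in the adult, and after rescaling 6 lower and 1 higher. Aldh1a2, which makes retinoic acid in embryonic mesenchyme, had 24.8 to 36.9 FPKM before birth, 5.32 and 5.38 at P5, and 0.249 to 0.759 in the adult, and fell by 4.34 on the log2 scale (SE 0.14, adjusted p = 5.70e-11 in limma). Crabp2, which carries retinoic acid to its receptors, had 21.8 to 84.5 FPKM before birth, 3.61 and 3.29 at P5, and 0.713 to 2.23 in the adult, and fell by 4.41 (SE 0.35, adjusted p = 1.16e-07 in limma). Crabp1, a related carrier, fell by 2.43 (adjusted p = 0.00189 in limma) and held 9.28 and 13.2 FPKM at 4wk. All 3 were also called after rescaling, at -3.77, -3.70 and -1.63. Of 9 tested retinoid targets 5 were called lower and 0 higher, among them Stra6, the retinol-binding protein receptor (-1.96), and after rescaling 4 lower and 0 higher. The list holds Rarb itself. Cyp26a1 stayed between 0 and 0.495 FPKM and was not tested.

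Of the 4 tested genes of retinoid X and vitamin D receptors 2 were called lower in the adult as deposited. Rxra, the main retinoid X receptor of epithelia, fell by 1.39 (adjusted p = 5.93e-07 in limma) and Rxrb by 1.03 (adjusted p = 4.71e-05 in limma), and after rescaling they were at -0.54 and -0.15 and not called, while 1 gene of this list was called higher, Vdr, the vitamin D receptor (1.30, adjusted p = 2.56e-05 in limma), which was at 0.71 as deposited and is named after its values were seen. Of 20 coactivators and corepressors 7 were called lower and 0 higher, and after rescaling 3 lower and 1 higher. Prmt1 and Carm1, arginine methyltransferases that act as coactivators, fell by 2.66 and 2.17, and by 1.73 and 1.33 after rescaling, and Ncoa7 fell by 2.13 and 1.51. Of 22 other nuclear receptors tested 2 were called higher (Nr1d1 and Nr1d2, the haem-binding repressors of the circadian clock) and 4 lower, and after rescaling 7 higher and 3 lower. Nr1d1, which overlaps Thra, had 2.88 to 5.14 FPKM before birth, 8.09 and 6.99 at P5, and 8.90 to 19.1 in the adult, and rose by 1.33 (adjusted p = 2.69e-05 in limma) where Thra fell. Nr2f1 and Nr2f2, COUP transcription factors, fell by 3.21 and 2.74, and Nr5a2 by 1.48. Among 5 other steroid receptors and steroid-binding proteins tested 2 were called higher and 0 lower, and after rescaling 3 higher and 0 lower, and the larger change as deposited was in Esrrg, an orphan oestrogen-related receptor of energy metabolism, with a log2 fold change of 3.49 and 28.7 to 36.7 FPKM in the adult.

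**Figure D5:**
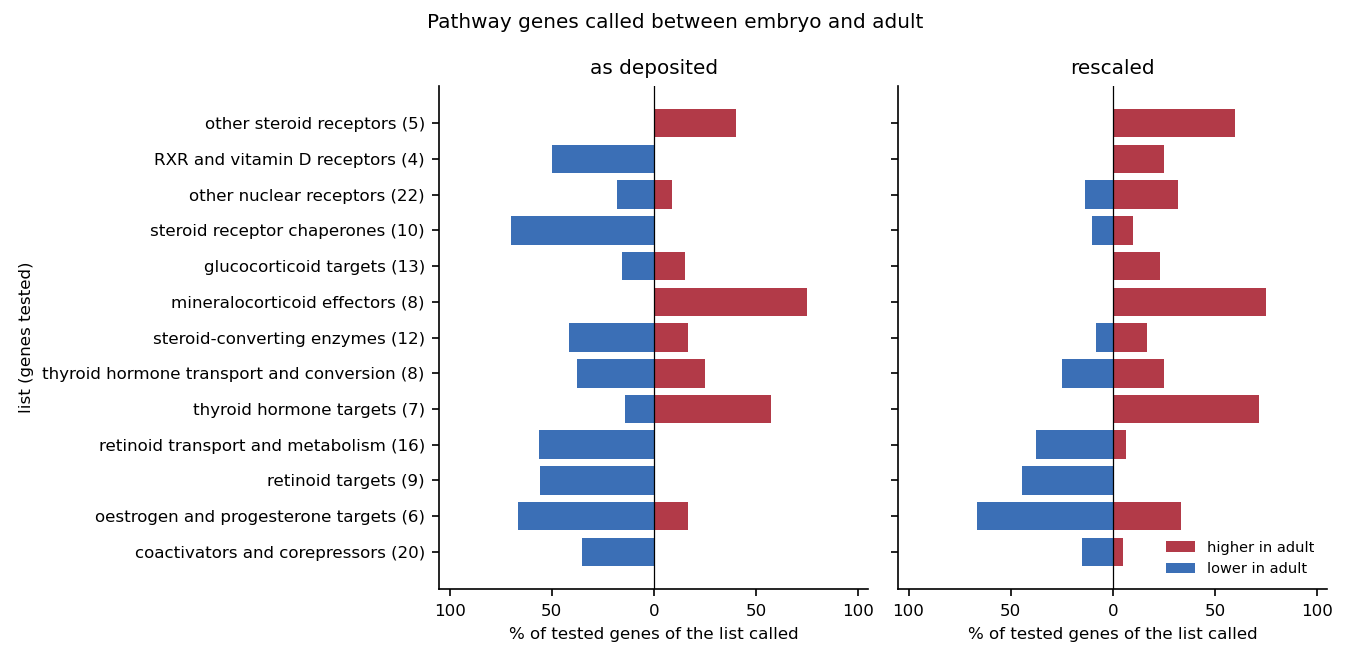
Percent of the tested genes of each list called higher (red, to the right) or lower (blue, to the left) in adult than in embryo, as deposited and after rescaling, with the number of genes tested in brackets. The mineralocorticoid effectors had 6 of 8 genes higher on both scalings, and 7 of 10 chaperones were lower as deposited and 1 of 10 after rescaling.

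Over all tested genes the median log2 fold change from embryo to adult was -0.75 as deposited and -0.076 after rescaling, and the medians of the lists follow in the same order. They were 2.07 and 2.89 for the mineralocorticoid effectors and 1.05 and 1.67 for the thyroid hormone targets. For thyroid hormone transport and conversion they were -0.32 and 0.15, with the sign turned by rescaling. The steroid-converting enzymes had -0.91 and -0.34, and the steroid receptor chaperones -1.59 and -0.65. Retinoid transport and metabolism had -1.28 and -0.47, the retinoid targets -1.09 and -0.20, and the oestrogen and progesterone targets -2.06 and -1.68. Coactivators and corepressors were at -0.84 and -0.020, the other nuclear receptors at 0.049 and 0.62, the retinoid X and vitamin D receptors at -0.70 and -0.050, and the other steroid receptors and steroid-binding proteins at 0.61 and 1.52. Without both 4wk samples and as deposited, 878 of all 14650 tested genes were called higher and 5533 lower. The mineralocorticoid effectors had 6 genes called higher and 1 lower, the chaperones 1 higher and 5 lower, and retinoid transport and metabolism 0 higher and 9 lower. The other nuclear receptors then had 4 higher and 5 lower, thyroid hormone transport and conversion 1 higher and 3 lower, and the retinoid X and vitamin D receptors 0 higher and 1 lower. The glucocorticoid targets had 3 higher and 3 lower, the retinoid targets 1 higher and 5 lower, and the other steroid receptors and steroid-binding proteins 2 higher and 1 lower.

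Between successive ages, receptors were called in the step from P5 to 4wk alone. Nr3c1 (-1.22), Thra (-1.37), Rara (-1.33) and Rarg (-1.05) fell, 4 of the 7 tested, with 24.3% of all genes called and 22.1% called lower. After rescaling Thrb alone was called, where it rose, with 15.1% of all genes called and 6.37% called higher. Without 4wk replicate 2 Nr3c1 was at -0.95, and without P5 replicate 1 or 4wk replicate 1 Rarg was at -0.95 and -0.88, short of the fold threshold. In limma 0 receptors were called from E14.5 to E16.5, from E16.5 to E18.5, from E18.5 to P5 and from 4wk to 12wk, where 5.15%, 2.94%, 5.04% and 5.15% of all genes were called. An unadjusted p below 0.05 was reached by 1, 4, 2 and 2 of the 7 receptors in these steps, and no share of all genes is given for this threshold. From 4wk to 12wk the log2 difference of Rarb was -0.90 (SE 0.29, adjusted p = 0.0713 in limma) and that of Thra -0.50 (SE 0.15, adjusted p = 0.0481 in limma). Without 4wk replicate 2 the log2 difference of Rarb in this step was -1.41, and without 4wk replicate 1 it was -0.39. Each of these fits left 1 sample at 4wk, so no call is given for them.

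Whole glands were sequenced, so a lower share of a cell type and less receptor RNA per cell cannot be told apart. The summed FPKM of 7 mesenchyme markers was 1233 to 1573 before birth, 941 and 1059 at P5, and 243 to 389 in the adult, and 6 of the 7 were called lower in the adult, on both scalings. Of 5 endothelial markers 5 were called lower as deposited and 2 after rescaling, with sums of 101 to 127 FPKM in the embryo and 24.1 to 42.4 in the adult. The 5 granular duct markers summed to 11.8 to 130 FPKM before birth, 556 and 591 at P5, and 17504 to 20519 in the adult, and 3 of the 4 tested were called higher. Of 5 acinar markers 4 were called higher as deposited, 5 after rescaling and 2 without both 4wk samples, and of 6 gland epithelium markers 1 was called lower as deposited, and 1 lower and 1 higher after rescaling. The gland epithelium markers summed to at least 327 FPKM in every sample. Skeletal muscle markers summed to 161 to 1013 FPKM at E14.5 and E16.5 and to 33.2 or less later. Red cell markers summed to 60.7 to 167 FPKM in the embryo and 4.26 or less in the adult. At P5, where Nr3c1 and Esr1 were highest, immune cell markers summed to 47.5 and 42.5 FPKM, above all other samples (31.2 or less). Fat cell markers summed to 197 and 53.2 FPKM in the same P5 samples, and to 83.2 in 4wk replicate 1. The part of these cell types in the receptor levels was not tested.

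The genes whose log2 levels followed each receptor most closely over the 13 samples are given by Pearson's r, as a description, since the samples share the same ages, scaling and depths. For Thra they were Tm7sf3, Nrep and Mfap2 (r of 0.99 each), and for Thrb Kat2b, Osbpl2 and Ccpg1 (0.99 each). For Rara they were Rnps1, Rbm22 and Smarcd1 (1.00 each, rounded), for Rarb Tmem206, Kars and Pafah1b1 (0.99 each) and for Rarg Dpf2 (1.00, rounded), Minpp1 and Poldip3 (0.99 each). Nr3c1 was followed by Loxl4 (0.97), Zranb1 and Fam3c (0.95 each), and Nr3c2 by 4930506M07Rik (0.95), 4732471J01Rik and Cog7 (0.94 each). Kat2b is a histone acetyltransferase, and Rnps1 and Rbm22 are splicing factors.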

How the data were processed

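RNA-seq of mouse submandibular glands was analysed in 13 samples at 6 ages, grouped by the sample labels. The authors mapped 50 bp single-end reads from total RNA to mm9 with TopHat2 2.0.13 and Bowtie2 2.2.6, counted them on genes with featureCounts, leaving out reads of several places or several genes, and deposited FPKM, for which DESeq2 1.10.1 median normalization is described. The median-of-ratios factor that a sample's FPKM gave was 1.15 to 1.38 in the embryo, 1.03 and 1.09 at P5 and 0.617 to 0.714 in the adult, so the values were treated as scaled to sample totals and rescaling by these factors was an alternative. No counts were given, and the main test is not a count test. Reads were computed from the FPKM steps (within 0.01 of whole reads), and precision is set by the reads on each gene.

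log2(FPKM + 1) of 14650 genes was fitted with limma 3.58.1 in R 4.3.3 (trend, Benjamini-Hochberg), with 3 stages or with 6 ages as groups, and the thresholds were those of the study's methods. Ratios used log2(FPKM + 0.1) and two-sided exact permutation tests over all labellings, computed in Python with numpy 2.4.6. The Poisson intervals used scipy 1.17.1. Tables and figures used Python 3.11.15 with pandas 2.3.3 and matplotlib 3.10.9.

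The receptors, lists and tests were chosen with earlier results of these data known. Named from each list were up to 3 genes per direction with the largest log2 fold change and no overlap of samples between embryo and adult, with each receptor's 3 most similar genes. Not every gene under this rule is reported. Replicate samples are labelled as such, and where separate animals are not stated the p-values measure the spread between these samples. Promoter letters are RefSeq's. Alternatives were another pseudocount, other filters, rescaling, a stricter adjusted p (0.05), limma without its trend, a block on replicate number, stages as means of ages, each sample left out, and, added after seeing the data, leaving out both 4wk samples.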

Additional observations from a re-analysis of the deposited data

How the results depend on the processing

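Receptors past both thresholds numbered 1 between embryo and P5, 3 between P5 and adult, 5 between embryo and adult, 4 from P5 to 4wk and 0 in the other steps. Rescaling changed these to 0 between embryo and P5, 1 between P5 and adult, 4 between embryo and adult (Nr3c2 gained, Thra and Rarg lost) and 1 from P5 to 4wk. A pseudocount of 0.1 gave 3 receptors between embryo and P5, 6 between embryo and adult (with Nr3c2, 1.17), 4 between P5 and adult (with Rarg, -1.02), 1 from E16.5 to E18.5 and 1 from 4wk to 12wk. In the same order, 2412, 8419, 5320, 618 and 1658 of all 14650 tested genes were called with this pseudocount. With a pseudocount of 1 these all-gene counts were 1798, 6385, 3385, 430 and 755. With each embryonic or adult sample left out in turn, 5 receptors were called throughout between embryo and adult. Between embryo and P5 the count was 1, or 2 without E18.5 replicate 1, where Thrb was called. Between P5 and adult it was 3, or 4 without 4wk replicate 1 or 12wk replicate 1. In these 2 runs 3557 of 14547 and 3401 of 14618 tested genes were called between P5 and adult. No count is given for fits that left 1 sample in a compared group. Without E18.5 replicate 1, 2153 of all 14621 tested genes were called between embryo and P5. Between embryo and adult the all-gene count was lowest without E14.5 replicate 1 (6178 of 14419) and highest without E18.5 replicate 2 (6672 of 14608). Rescaling turned the sign of Thra between embryo and P5 (0.069) and of Nr3c1 between embryo and adult (0.042), and leaving out 4wk replicate 1 turned that of Nr3c2 between P5 and adult (-0.056, in a range up to 0.211 over the samples left out). The adult minus embryo difference in the log2 ratio of Rarg to Rara was 0.30 to 0.48 with samples left out and 0.12 with a pseudocount of 1, and that of Rarb to Rara -0.52 to 0.22, with 0.02 without E14.5 replicate 1, 0.11 without 12wk replicate 1 and 0.22 without 12wk replicate 2. The other 3 ratios kept their direction and stayed past the threshold in every alternative run. Without both 4wk samples, which was added after seeing the data, 5 receptors were called between embryo and adult and 4 between P5 and adult, Rarb among them (-1.18). Of all 14650 tested genes, 6411 and 3623 were called in these 2 comparisons without the 4wk samples. The cause of these changes was not tested.

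The replicate number as a block changed no receptor's call, with 5 receptors between embryo and adult, 3 between P5 and adult, 1 between embryo and P5 and 4 from P5 to 4wk. In the same order, 6262, 3354, 1489 and 3559 of all 14650 tested genes were called with the block. The numbers share no label of a litter or batch, and the deviations of samples with the same number had a mean r of -0.016 over 30 pairs (lowest -0.35), so no pairing was used. Depth limits Esr1, Pgr and all low genes at 4wk.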
